A study of Caenorhabditis elegans with 2 samples.

Results

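The cytosolic chaperonin genes of Caenorhabditis elegans are cct-1 to cct-8, and the account below describes where the tagged protein LSL-1 was found at them. The 8 genes were taken by name from the Ensembl annotation, out of 19973 nuclear protein-coding genes. They were chosen with an earlier result of these same peak lists in view, the peak at cct-8 being among the strongest, and the rule reads their peaks, ranks, shared windows and replicate support. So the presence, the rank and the sharing of their promoter peaks are given as a description and no test was made on them. Each gene was read in a promoter window from 1000 bp upstream to 200 bp downstream of its annotated 5' end.

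The measurement was chromatin immunoprecipitation followed by sequencing (ChIP-seq) with an antibody against GFP, on whole young adult worms of mixed sex, 69 h old, hatched into starvation for synchrony. The strain was OP720. It carries the unc-119(tm4063) mutation and the array wgIs720, which supplies lsl-1 fused to TY1, EGFP and 3xFLAG together with a working unc-119 gene. The genotype lists no change in the animals' own lsl-1, so the tagged copies come in addition to it. LSL-1 is a zinc finger protein. The labels give 2 biological replicates of this 1 group, with no untagged or untreated group, so conditions cannot be compared, and because the animals were taken whole the cells in which LSL-1 was bound are not known. The list of replicate 1 has 30000 regions, that of replicate 2 has 26018, and the list from the pooled replicates has 30000. A further list of 3897 peaks was kept by irreproducible discovery rate (IDR), a measure of how well peaks hold their order between replicates, and these are the 3897 pooled regions of highest score. No read counts are in the lists, so the depth is unknown.

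The chaperonin, called CCT or TRiC, is a barrel of 2 stacked rings, each of 8 related subunits, that takes up newly made proteins and folds them in an inner chamber with energy from ATP. Actin and tubulin are its best known clients, and prefoldin is the helper that hands them over. All 8 subunits have a fixed place in each ring, so the complex needs every one of the 8 genes. In C. elegans embryos the complex is needed for normal microtubules and early cell division.

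All 8 chaperonin genes had an IDR summit in the promoter window, and each had exactly 1. Among all protein-coding genes the share was 14.2%. The members were chosen knowing of their peaks, so nothing is read from that difference. The genes lie on 4 chromosomes (4 genes on II, 2 on III, 1 each on IV and V). The sequence around the summit of 7 of the genes (all but cct-2) is printed here so that the words described below can be seen in place. Each is read 5' to 3' on the strand of the chaperonin gene, from the RefSeq genome of WBcel235 (the build called ce11), and spans 50 bases on either side of the summit. That of cct-3 spans 100 bases, and that of cct-6 is 1 base shorter to stop before the neighbouring gene. Capitals mark the word ACGCGC or the word GGGTCTC, which reads as GAGACCC where it is on the other strand, as for cct-6.
cct-1, chrII:8185163-8185263, plus strand: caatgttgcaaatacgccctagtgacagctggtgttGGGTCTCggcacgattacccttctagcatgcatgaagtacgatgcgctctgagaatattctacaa
cct-3, chrII:2232514-2232714, plus strand: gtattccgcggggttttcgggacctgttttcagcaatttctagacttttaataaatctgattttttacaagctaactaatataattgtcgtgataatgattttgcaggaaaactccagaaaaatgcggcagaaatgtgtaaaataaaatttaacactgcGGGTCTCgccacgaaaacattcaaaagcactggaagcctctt
cct-4, chrII:8283372-8283472, plus strand: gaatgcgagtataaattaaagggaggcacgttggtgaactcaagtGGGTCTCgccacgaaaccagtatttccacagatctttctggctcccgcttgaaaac
cct-5, chrIII:4508532-4508632, minus strand: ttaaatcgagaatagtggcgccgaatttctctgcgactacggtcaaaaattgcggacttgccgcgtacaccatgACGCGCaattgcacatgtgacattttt
cct-6, chrIII:5855918-5856017, minus strand: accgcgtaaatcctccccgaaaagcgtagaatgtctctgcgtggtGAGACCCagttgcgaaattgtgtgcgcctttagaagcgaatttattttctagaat
cct-7, chrV:1871922-1872022, plus strand: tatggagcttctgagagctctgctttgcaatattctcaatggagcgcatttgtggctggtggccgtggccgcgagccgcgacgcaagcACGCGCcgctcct
cct-8, chrIV:1094310-1094410, minus strand: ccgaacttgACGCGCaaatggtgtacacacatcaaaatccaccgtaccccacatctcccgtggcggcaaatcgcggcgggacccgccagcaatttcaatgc

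The strength of the peaks differed widely within the complex. Ranks run from 1, the highest score, to 3897, and the score is the authors' own value for a region, used here only within a list. The gene for the theta subunit, cct-8 (WBGene00021934), stood first. Its peak on chromosome IV, from 1094080 to 1094651, had a score of 3623 and was 8th of all IDR peaks, and the matching region was 8th in replicate 1 and 8th in replicate 2 as well. Next came cct-5 (WBGene00000380), for the epsilon subunit, with a peak on III from 4508362 to 4508780 and a score of 1352. It ranked 253 in the IDR list, 243 in replicate 1 and 306 in replicate 2. The third was cct-1 (WBGene00000377), for the alpha subunit, the one first described as TCP-1. Its peak on II from 8185043 to 8185426, with a score of 588, ranked 825 in the IDR list, 874 in replicate 1 and 701 in replicate 2. These 3 genes were in the strongest quartile of IDR peaks, which ends at rank 974. It holds the best peak of 1008 of the 2836 protein-coding genes with an IDR summit, or 5.05% of all protein-coding genes. All 8 members have a peak, so the count among genes with a summit is the like one, and nothing is read from the 3.

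A middle group of 3 genes had ranks between 1088 and 1769. For cct-3 (WBGene00018782), which encodes the gamma subunit, the peak on II from 2232535 to 2232826 ranked 1088, with ranks of 1068 and 1208 in replicates 1 and 2. The eta subunit gene cct-7 (WBGene00020391) had its peak on V from 1871838 to 1872086 at rank 1399, with 1373 and 1550 in the replicates. That of the zeta subunit gene cct-6 (WBGene00000381), on III from 5855879 to 5856065, was at rank 1769, with 1799 and 2095. In these 3 genes replicate 2 gave the later rank, but all 3 stayed within the 3897 strongest regions of both replicates.

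The last genes, cct-4 and cct-2, were only just inside the IDR list, whose weakest peak has a score of 115. The delta subunit gene cct-4 (WBGene00000379) had a peak on II from 8283204 to 8283639 with a score of 119 and rank 3772, so 125 peaks followed it. Its region ranked 3968 in replicate 1 and 3458 in replicate 2, past the first 3897 in replicate 1 and within them in replicate 2. For the beta subunit gene cct-2 (WBGene00000378), the peak on II from 8927242 to 8927677 had a score of 116 and rank 3868, with 29 peaks after it. It ranked 3915 in replicate 1 and 4735 in replicate 2, beyond the first 3897 in both. The pooled score of the peak at cct-8 was thus 31.3 times that of the peak at cct-2. Both peaks also lie in the promoter window of a neighbouring gene, as described below.

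**Figure D1:**
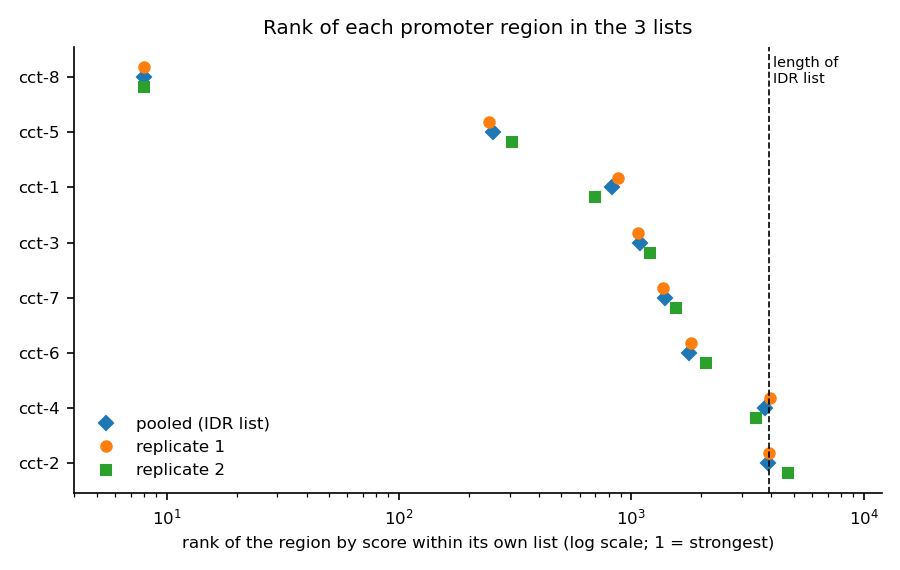
Rank of the region at each chaperonin gene promoter (x axis, log scale, 1 is the strongest) in the IDR list from the pooled replicates (diamonds), in replicate 1 (circles) and in replicate 2 (squares), with the length of the IDR list as a dashed line. The region at cct-8 ranks 8 in all 3 lists, and those at cct-4 and cct-2 lie around the dashed line.

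With every region of the 2 replicate lists counted, both replicates held a summit within 100 bp of the IDR summit at all 8 genes. The share of all genes under that rule is not given here, so nothing is read from the count. Counting only the 3897 strongest regions of each replicate, 6 of the 8 genes were found in both, cct-4 in replicate 2 alone and cct-2 in neither. Of the 2836 protein-coding genes with an IDR summit, 2441 had their best IDR peak in the strongest regions of both, or 12.2% of all protein-coding genes. The 8 members all have a peak, so the count among genes with a summit is the like one. The IDR peaks come from these same replicates, so this is a description of the peaks and no independent check. Summits at the 8 genes lay from 0 to 17 bp apart between the replicates, with 0 bp at cct-3 and 17 bp at cct-7. The peaks of cct-4 and cct-2 had the width of 436 bp that 1699 of the 3897 IDR peaks share, whereas the other 6 were between 187 bp (cct-6) and 572 bp (cct-8). In replicate 2 the regions of 5 genes had the commonest width of that list (430 bp), in replicate 1 those of 2.

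Every one of the 8 summits lay between the chaperonin gene and a second protein-coding gene that runs the other way, and every summit was in the promoter windows of both. The position therefore does not tell which of the paired genes the peak belongs to, or whether it belongs to both. Among the 2836 protein-coding genes with an IDR summit, 54.5% had their best peak in a window shared with another gene. Divergent neighbours, here meaning opposite 5' ends at most 1200 bp apart, were found for 20.2% of protein-coding genes, and 35.2% of those genes had an IDR summit. The limit of 1200 bp was set after seeing the distances at the 8 genes, which ran from 331 bp at cct-6 to 1190 bp at cct-2.

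In 7 of the 8 pairs the summit was closer to the 5' end of the neighbour than to that of the chaperonin gene. Among the 1545 genes whose best summit is likewise shared this share was 51.5%, and among all genes with an IDR summit, shared or not, it was 28%. At cct-8 the summit was 440 bp upstream of the chaperonin gene and 181 bp upstream of Y55F3AR.2, which RefSeq annotates as a thioredoxin domain protein. The peak of cct-5 was 468 bp upstream of it and 273 bp upstream of F25F2.1, annotated with a protein kinase domain. The peak of cct-3 was the most one-sided. It lay 926 bp from cct-3, close to the upstream edge of the window, and 144 bp from F54A3.6, annotated as a Trithorax group protein.

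At cct-6 the summit was 281 bp from the chaperonin gene and 50 bp from alh-9, which encodes a putative aldehyde dehydrogenase. For cct-7 the distances were 274 bp and, to the acetyltransferase gene T10B5.4, 165 bp. A short noncoding RNA gene, T10B5.13, also overlaps the cct-7 peak, and another, Y55F3AR.4, overlaps that of cct-8. Near the middle of the gap lay the summits of cct-1 (230 bp, and 190 bp from mig-5, a Dishevelled gene of Wnt signalling) and of cct-4 (245 bp, and 214 bp from nst-1, the nucleostemin gene for a nucleolar GTPase). The exception was cct-2, with its summit 281 bp upstream of it and 909 bp from B0457.2, annotated as a glycine-rich protein. With the peaks given to the closest 5' end alone, cct-2 was thus the only chaperonin gene left with a peak, 1 of 8, and 10.5% of all protein-coding genes had one under that rule.

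**Figure D2:**
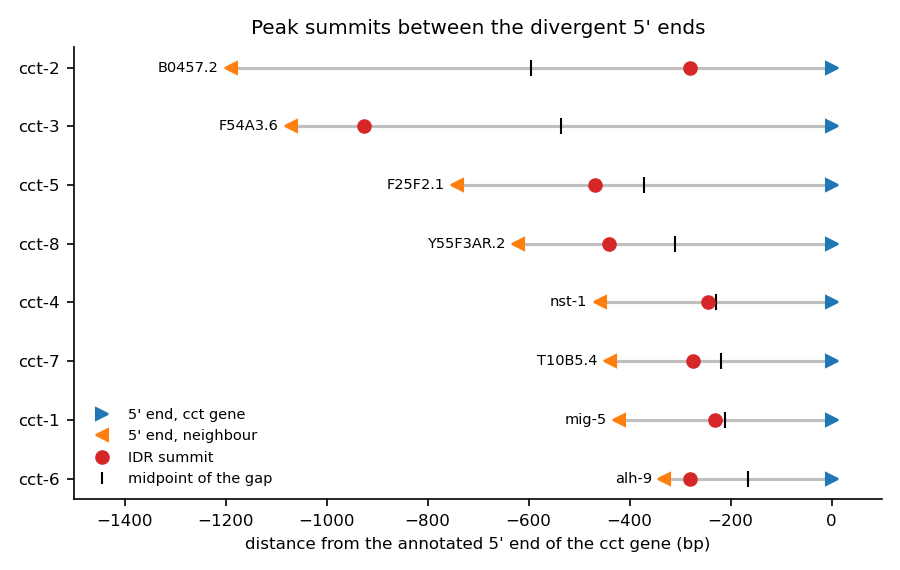
Position of the IDR summit (circles) between the annotated 5' ends of each chaperonin gene (right triangles, at 0) and of its divergent neighbour (left triangles), in bp from the 5' end of the chaperonin gene, with the middle of each gap as a tick. In 7 of the 8 pairs the summit is on the neighbour's side of the middle, and at cct-2 it is on the chaperonin gene's side.

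The annotated 5' ends set these distances. Many worm transcripts receive their first bases from a spliced leader RNA, which hides the true start, and the annotated 5' ends of the chaperonin genes lie only 1 bp (cct-4) to 30 bp (cct-5) before the first coding base. Measured from the first coding bases of both genes instead, the summit was closer to the neighbour in 6 of the 8 pairs. The gene that changed was cct-6, since the first coding base of alh-9 lies 1191 bp inside its annotated start.

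The median summit of the 8 genes was 281 bp upstream of the 5' end, and that of all genes with an IDR summit 250 bp. The windows held 5 weaker pooled regions in total, spread over 4 genes, a count given here with no share over all genes. The best of them was at cct-4, with rank 4797 and its summit at -519 bp, inside nst-1. That of cct-1, with rank 21294, had the same start and end as the IDR peak and is a second summit in it. The windows of cct-2, cct-5, cct-7 and cct-8 held no region other than the IDR peak. A stronger peak than its own lay close to cct-7, at rank 844 and 1365 bp upstream, inside T10B5.4 and outside the window. This was so at cct-2 too, where a peak of rank 2587 lay 1156 bp beyond the 3' end, at -26 bp from the 5' end of enol-1.

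**Figure D3:**
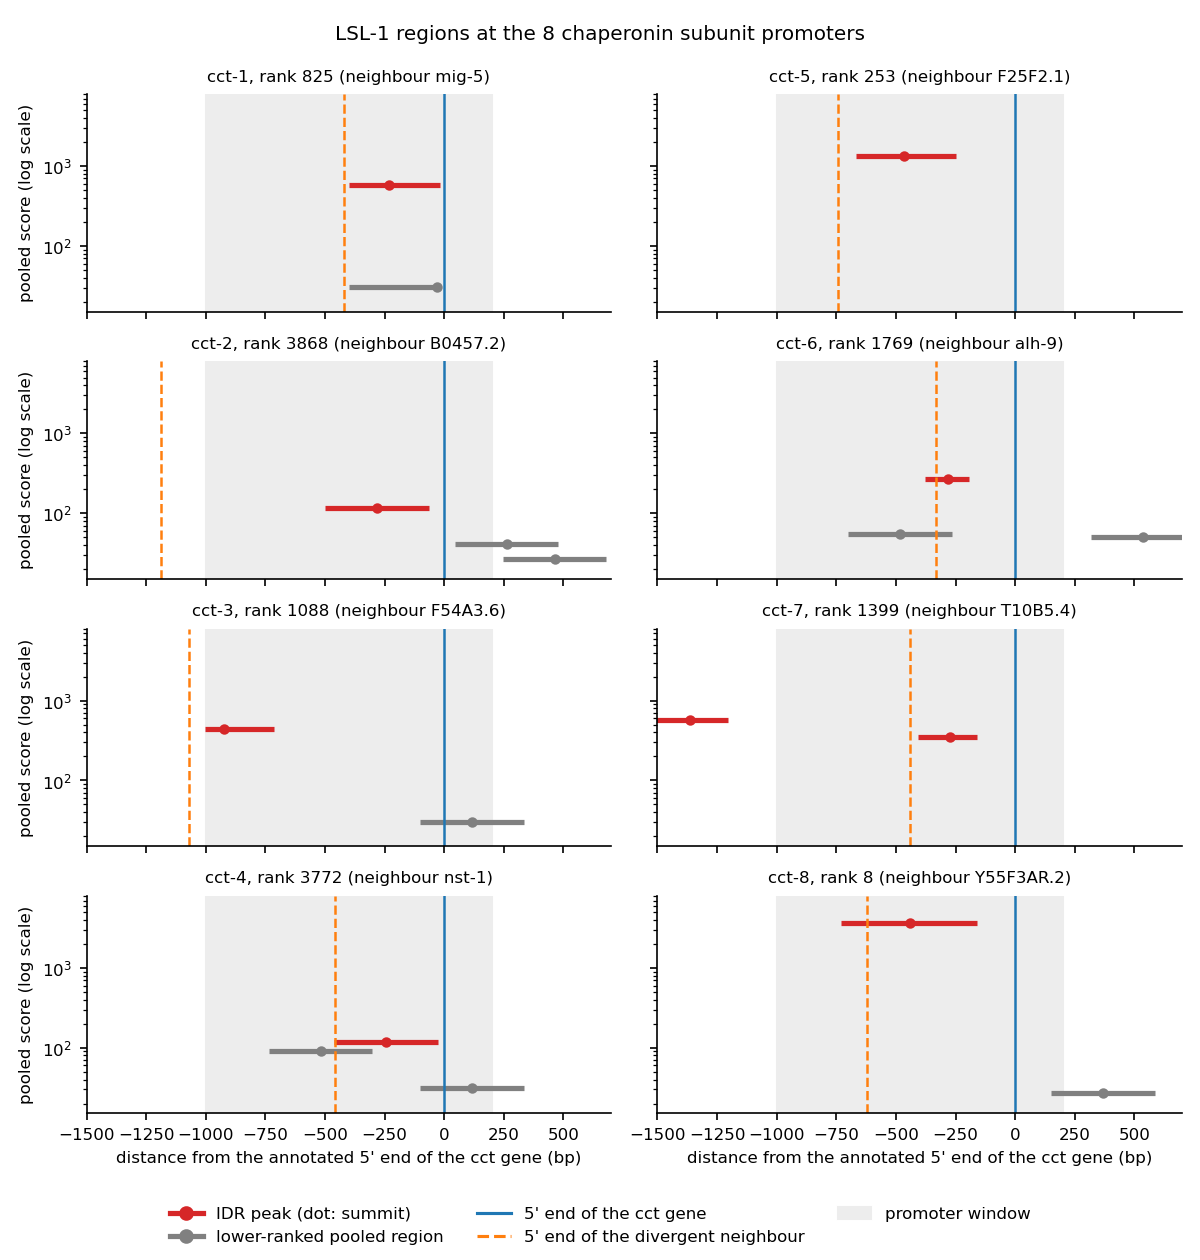
Pooled regions around the 5' end of each chaperonin gene, with the distance from that end in bp on the x axis and the pooled score on a log y axis. Bars are regions and dots their summits, red for IDR peaks and grey for lower-ranked regions; lines mark the 5' end of the gene (solid) and of its neighbour (dashed), and the promoter window is shaded. Each window holds 1 IDR peak, and the heights differ 31.3-fold between cct-8 and cct-2.

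Weak regions were also found along the genes and at their ends. All 8 genes had a pooled region with its summit within 250 bp of the annotated 3' end, a distance chosen after seeing the regions. This was so for 22.5% of protein-coding genes and for 57.9% of those with an IDR summit in the promoter window. Most of these were weak. Their best ranks were 4400 at cct-1, 4802 at cct-2, 8653 at cct-3, 4467 at cct-4, 15208 at cct-5 and 11256 at cct-8. Only cct-6 and cct-7 had an IDR summit there, against 4.38% of protein-coding genes, and within 100 bp cct-6 alone had one. At cct-6 there were 2, with ranks 2496 and 3677, and both lay in the promoter window of ddx-23, the next gene on the same strand and one for an RNA helicase. At cct-7 the peak of rank 2144 lay 186 bp beyond the 3' end and in no promoter window. Inside the genes the pooled list had from 0.613 regions per kb at cct-7 to 1.93 at cct-2.

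The words marked in the sequences above were counted at the 7 chaperonin genes read for them. ACGCGC was within 50 bp of the summit at cct-5, cct-7 and cct-8. It was in 14.2% of all IDR summit windows of this length, 17.1% of those in promoters and 3.08% of the lower-ranked pooled regions. GGGTCTC, a word picked by eye from the sequences printed above, was within 50 bp at cct-1, cct-4 and cct-6 and 59 bp from the summit at cct-3. It was in 9.37% of IDR summit windows, 11.4% of those in promoters and 1.69% of lower-ranked regions. At cct-1, cct-3 and cct-4 the word ran on into CTCGNCACG, also picked by eye, which 5.11% of IDR windows held. The windows of 6 of the 7 genes held one or the other of ACGCGC and GGGTCTC, and none held both. Only 1.03% of all IDR windows and 1.46% of those in promoters held both, so nothing is read from their absence together here. One or the other was in 22.6% of all IDR windows, 27.1% of those in promoters and 4.69% of lower-ranked regions. GGGTCTC was picked from these same sequences, so nothing is read from the 6 of 7 beside those shares. All words were searched on both strands. ACGCGC cannot overlap GGGTCTC, whereas CTCGNCACG shares its first letters with the end of GGGTCTC.

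Some other words that are frequent in the peak list were not found in these 7 windows. ACAGTA was in 24.9% of all IDR windows and 9.32% of lower-ranked regions. The word ACTGTA was in 24.2% and 9.58% of them, and the word CTACAG in 17.4% and 7.32%. These 3 words can overlap one another, as in CTACAGTA. None of the 7 chaperonin windows held any of them, and none was found within 100 bp of a summit either. In the windows of promoter peaks they were less frequent, at 18.7%, 17.9% and 11.8%, and 27.3% of all IDR windows and 21.04% of promoter ones held at least 1 of the 3. GGCGCA, in 18.2% of IDR windows, was found at cct-6 alone. TATAAA was found at cct-4 alone, against 6.31%, and the splice acceptor word TTTCAG at none, against 10.5%. No match means only that these letters were not in this window. Guanine and cytosine made up 47.5% of the bases at the median of the 7 genes, from 26.7% at cct-3 to 60.4% at cct-7, where promoter peaks had a median of 43.6%.

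Genes that work with the chaperonin were read in the same way, in 7 lists. Of all protein-coding genes 14.2% had an IDR summit. The lists were chosen with earlier results of these data known, so their counts are a description and nothing is read from them. Of the 6 prefoldin genes 4 had an IDR summit: pfd-1 at rank 791 (shared with F01G4.6), pfd-3 at 1036, pfd-6 at 2253 (shared with rde-2) and pfd-5 at 3482 (shared with exos-9). The other two, pfd-4 and pfd-2, had only lower-ranked regions, of ranks 4481 and 18643. In mitochondria a separate chaperonin is made by hsp-60 and its co-chaperonin Y22D7AL.10, and these divergent genes share the peak of rank 316. Of the 12 genes for cytosolic Hsp70, Hsp90 and their helpers, 9 had an IDR summit. The best were the Hsp40 genes dnj-13 (rank 534, shared with F54D5.9) and dnj-19 (rank 895, shared with nhr-47), the Hsp70 regulator bag-1 (rank 1282) and the constitutive Hsp70 gene hsp-1 (rank 1431). The Hsp90 gene hsp-90 had only a region of rank 5590, and cdc-37, for a kinase-specific Hsp90 partner, had no region in its window.

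Genes for clients of the chaperonin were read too, beside the 14.2% of all protein-coding genes that had an IDR summit. Of 5 actin genes only act-2 had an IDR summit (rank 1794), and of 16 tubulin genes only tbb-1 (rank 308, shared with rib-2), tba-2 (rank 964) and the gamma tubulin gene tbg-1 (rank 1723, shared with rpac-19). Of the tubulin genes 11 had no pooled region at all in the window, and 4 of the 16 lie on the X chromosome. The share of all genes without a pooled region is not given here, so nothing is read from the 11. Several actin and tubulin genes are near-identical copies. Whether reads in their promoter windows were split or dropped was not tested, and these genes are uncertain. Neither fzy-1 nor fzr-1, whose yeast relatives Cdc20 and Cdh1 are folded by the chaperonin, had an IDR summit. Of the 6 genes for tubulin folding cofactors, which act after the chaperonin, 3 had one, namely tbcc-1 (rank 1667), tbcd-1 (2642) and tbcb-1 (2653). The median rank of the genes with a peak was 1243.5 for the chaperonin, 1644.5 for prefoldin, 1492 for the Hsp70 and Hsp90 list and 2642 for the tubulin folding cofactors. It was 964 for the 3 tubulin genes and 316 for the peak shared by both mitochondrial chaperonin genes, against 1443.5 for all genes with an IDR summit. Differences between these lists were not tested.

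**Figure D4:**
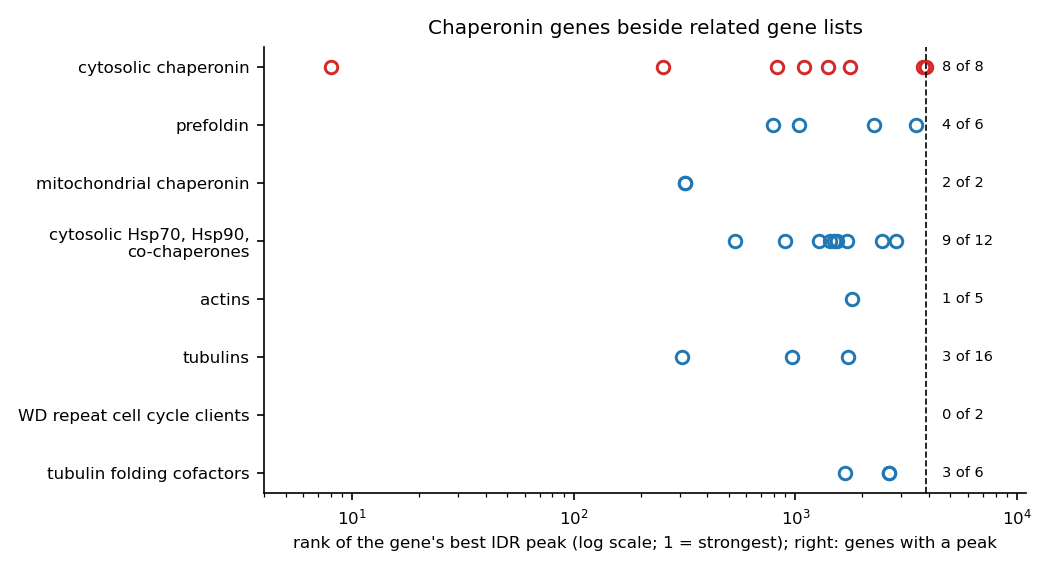
Rank of the best IDR peak of each gene (x axis, log scale, 1 is the strongest) for the chaperonin genes (red) and 7 related lists (blue), with the number of genes that had a peak at the right and the length of the IDR list as a dashed line. All 8 chaperonin genes have a peak, from rank 8 to rank 3868, and 3 of the 16 tubulin genes do.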

How the data were processed

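ChIP-seq regions were derived by the submitters from ce11 (WBcel235) alignments of each replicate and of both pooled, per the notes deposited with the samples. For the caller, the aligner and the IDR threshold, nothing is stated in the labels used. The labels name a possible control, which is not analysed here. The deposited score of each region is on the caller's scale and was used only within a list. Ties were broken by the −log10 q-value, as deposited. The deposited summit offset, added to the region start, gave the position. The 8 members, the 7 related lists and the words were chosen with earlier results of these data known. Of 50 related symbols, 1 (daf-21, an older name of hsp-90) had no match. Named genes are the members, genes sharing their peaks, flanking genes of peaks near them and up to 4 genes with a peak in each related list; tubulin, actin and chaperone genes without a peak were named after their values were seen. With 1 group and members chosen on their peaks, no test was made. The sequence at cct-2 is not reported here, for a reason that does not concern its values, and words and base content cover the other 7 genes. The window code was tested on simulated data. Alternatives were other windows, midpoints, first coding bases, single replicates, a stricter list, the closest gene, match distances and word distances. Python 3.11.15, numpy 2.4.6, pandas 2.3.3 and matplotlib 3.10.9 were used.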

Additional observations from a re-analysis of the deposited data

How the results depend on the processing

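The count of 8 chaperonin genes with an IDR summit became 7 with a window from 500 bp upstream to 100 bp downstream (without cct-3, against 11.3% of all protein-coding genes) and 6 with the upper 50% of peaks by score (without cct-2 and cct-4, against 9.0%). All 8 kept one with 2000 bp upstream, region midpoints, first coding bases or any overlap (against 17.5%, 14.2%, 14.2% and 15.2%). Leaving out replicate 1 gave 7 (without cct-2, against 13.6%), and leaving out replicate 2 gave 6 (without cct-2 and cct-4, against 14.2%). Given to the closest 5' end alone, the peaks left 1 gene, cct-2, against 10.5% of all genes, by construction, since 7 of the 8 summits are closer to a neighbour. The count of genes with an unshared peak was 0, against 1291 of the 2836 genes with an IDR summit (6.46% of all protein-coding genes). With the narrower window it became 1 (cct-2), against 1210 of 2248 (6.06% of all). With first coding bases it was 1 (cct-6), against 1307 of 2840 (6.54% of all). In the strongest quartile were 3 genes, against 1008 of the 2836 genes with an IDR summit (5.05% of all protein-coding genes). With the 2000 bp window there were 4, against 1251 of 3504 (6.26% of all). Support in both replicates was 6 genes with matches within 50 bp or 200 bp and 8 with all regions. Within 25 bp of the summit ACGCGC was at 0 of the 7 genes read in place of 3 and TATAAA at 0 in place of 1, and within 100 bp TTTCAG was at 2 in place of 0, as the windows are smaller or larger. With divergent limits of 600 bp and 2000 bp, chosen after seeing the data, 39.7% and 29.7% of such genes had an IDR summit. At 600 bp 4 of the 8 members had a divergent neighbour, beside 2263 of the 19973 protein-coding genes. At 2000 bp all 8 did, beside 5562. IDR summits near the 3' end were at 1 gene within 100 bp and 2 within 500 bp, distances also chosen after seeing the data, in place of 2 within 250 bp. Shares of all genes or windows at these other match, word and 3' end distances are not given here, so nothing is read from those counts. Of 14 counts of related genes in other windows, 13 stayed within 1.5 times. No paired analysis was possible because there is 1 group. The depth is unknown, so its part in the weak regions was not tested.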
